A study of Drosophila melanogaster with 12 samples.

Results

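The Hox genes of Drosophila melanogaster encode homeodomain transcription factors that give each body segment its identity. They lie in a pair of clusters on chromosome arm 3R, the Antennapedia complex and the bithorax complex, and their order along the chromosome follows the order of their expression domains from head to abdomen, a property called collinearity. Polycomb group proteins keep them silent outside these domains, and long non-coding RNAs and microRNAs (miRNAs) transcribed from the spaces between them take part in their control. The units described here are those whose gene field names lab, pb, zen, Dfd, Scr, ftz, Antp, Ubx, abd-A or Abd-B. The rule found 10 units, 1 for each gene, among 15991 units in all. A unit is a stretch of 1 strand that the study's annotation treats as transcribed, and it can hold several genes. The genes zen and ftz lie in the Antennapedia complex and have a homeobox, but act in dorsal patterning and in segmentation and not as homeotic genes.

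The study profiled nascent RNA held by RNA polymerase II (mNET-seq) in S2 cells, a male Drosophila cell line. Its 12 libraries form 6 groups of 2, in which either total polymerase or its form with phosphate on serine 5 of the C-terminal domain was captured after MSL1 RNAi, MOF RNAi or control RNAi, the last named GST in the titles. MSL1 and MOF are proteins of the dosage compensation complex of males. The series' design text gives 4 days of RNAi for MOF, against 2 days for MSL1 and for the control. The file analysed here is the annotation, on the dm6 build, and it holds a value for 0 of the 12 libraries. No level of any Hox gene in S2 cells, no effect of RNAi and no depth is therefore given, and every value below is a position, a length or a count in the annotation, with no replicates and no test.

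All 10 units lay on 3R, in the order lab, pb, zen, Dfd, Scr, ftz, Antp, Ubx, abd-A and Abd-B from low to high coordinates. The 7 units of the Antennapedia complex spanned 337802 bp, from 6661427 to 6999228. The 3 units of the bithorax complex spanned 315614 bp, from 16656623 to 16972236. Between Antp and Ubx lay 9657394 bp with 1388 other units. The minus strand carried 8 of the 10 units, so transcription of these runs toward lower coordinates, that is, toward the lab end. The exceptions were Dfd and ftz, on the plus strand. In the bithorax complex all 3 units pointed the same way, whereas along the Antennapedia complex the strand changed at Dfd, at Scr, at ftz and at Antp.

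**Figure D1:**
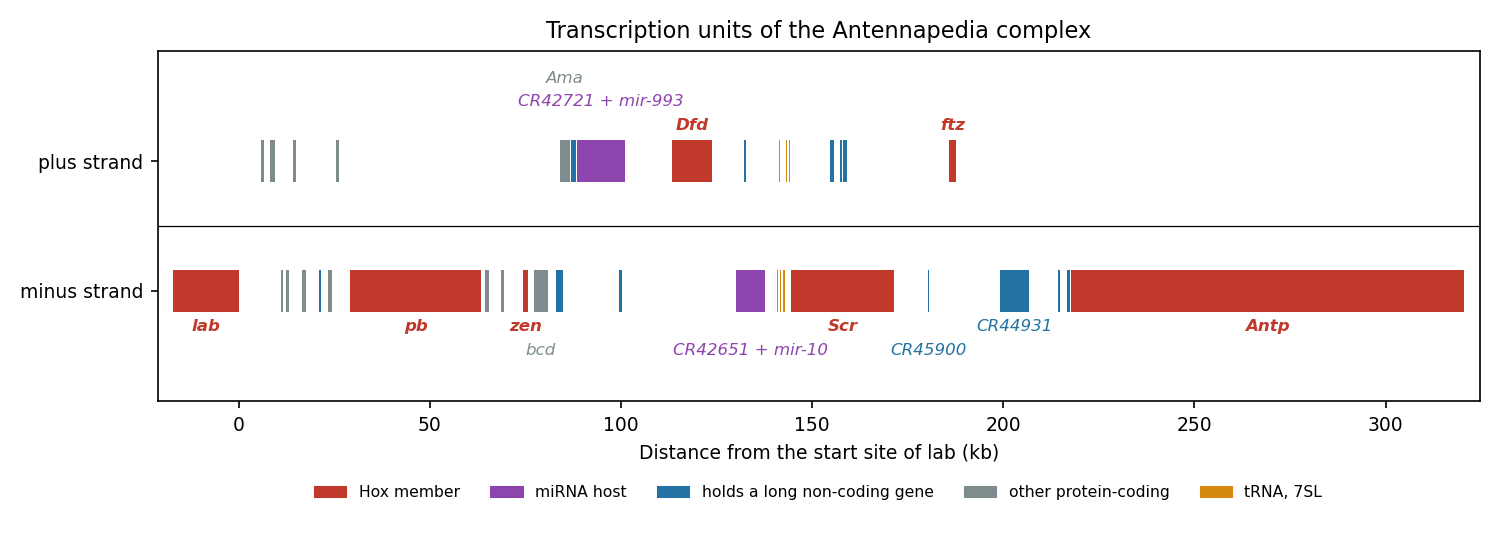
Units of the Antennapedia complex by strand, with distance in kb from the start site of lab on the horizontal axis. Colours give the class of each unit, units are to scale but none is drawn narrower than 0.3 kb, and not all are named. Of the 7 Hox units, drawn in red, 5 are on the minus strand, and Dfd and ftz are on the plus strand.

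The Hox units were long. Their median length was 24849 bp, beside 1817 bp over all units, a ratio of 13.7, and 9 of 10 exceeded the median of all units. A length of at least 10000 bp was reached by 8 of the 10 Hox units, and by 12.4% of all units. The 8 are the homeotic genes proper, with a median of 30563 bp, and the 2 shorter ones are zen and ftz. In all, the 10 units covered 340776 bp. The longest, Antp, was 77.4 times as long as the shortest, zen.

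Within the head group, the unit of lab (FBgn0002522), which acts in the most anterior head and in the midgut, ran from 6661427 to 6678590 on the minus strand and was 17164 bp long. Among all units, 7.6% were longer. The unit of pb (FBgn0051481), which sets the identity of the adult mouthparts, ran from 6707800 to 6742063 on the minus strand. It spanned 34264 bp, a length exceeded by 3.55% of units. The unit of Dfd (FBgn0000439), the gene of the mandibular and maxillary segments, ran from 6791836 to 6802428 on the plus strand. At 10593 bp it was the shortest of the 8 homeotic units, and 11.7% of all units were longer.

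Of the genes of the labial and thoracic segments, Antp had a longer unit than every gene of the head group, and Scr a shorter one than pb. Scr (FBgn0003339), which acts in the labial and the first thoracic segment and gives males their sex combs, had a unit of 26862 bp from 6823120 to 6849981 on the minus strand. Antp (FBgn0260642), known for mutants with legs in place of antennae, had a unit of 102976 bp from 6896253 to 6999228 on the minus strand. It ranked 88 among all units by length and 17 on 3R, and 0.544% of units were longer. Scr and Antp were also the only Hox units that held other genes, so 2 of 10 were merged, beside 7.15% of all units. The genes merged with them were 3 long non-coding RNA genes on the same strand. CR45902 and CR45903 lay 15014 bp and 14291 bp from the start site of the Scr unit, and CR43252 lay 94546 bp from that of the Antp unit, or 91.8% of the way along it. Signal counted over either unit would include these genes.

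In the bithorax complex, Ubx (FBgn0003944), which acts in the posterior thorax and turns the hind wing into a haltere, had a unit of 77804 bp from 16656623 to 16734426. It ranked 149 among all units and 28 on 3R, and 0.926% of units were longer. The unit of abd-A (FBgn0000014), the gene of the anterior and middle abdominal segments, was 22836 bp long, from 16807214 to 16830049. That of Abd-B (FBgn0000015), which acts in the posterior abdomen and genitalia, was 45025 bp long, from 16927212 to 16972236. The shares of all units longer than these were 5.6% for abd-A and 2.4% for Abd-B. All 3 were on the minus strand and held no other gene.

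The 2 members that are not homeotic genes were short. The unit of zen (FBgn0004053), needed for the dorsal extraembryonic tissue, was 1331 bp long, from 6752864 to 6754194 on the minus strand. The unit of ftz (FBgn0001077), a pair-rule segmentation gene, was 1921 bp long, from 6864324 to 6866244 on the plus strand. Their lengths lay on either side of the median of all units, with 9860 units longer than zen and 7670 longer than ftz.

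**Figure D2:**
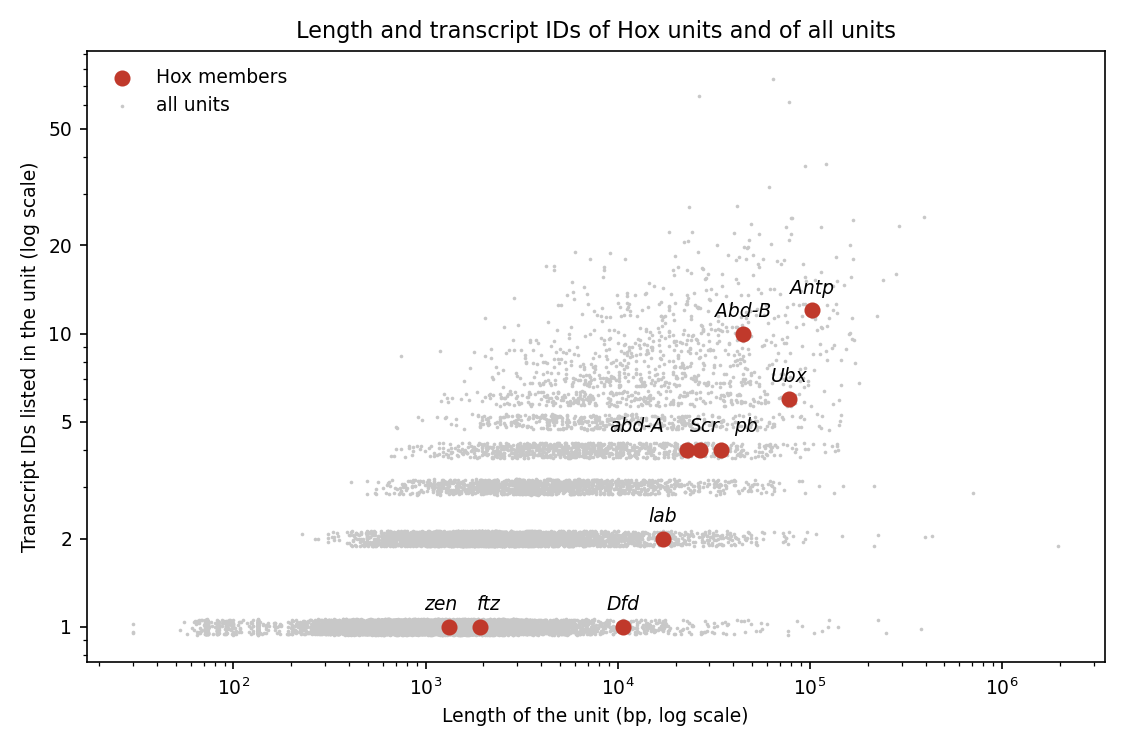
Number of transcript IDs against length in bp, both on log scales, for the 10 Hox units (red) and all 15991 units (grey, spread slightly in the vertical so that they can be seen). Antp, Abd-B and Ubx stand highest with 12, 10 and 6 IDs, and zen and ftz lie within the bulk of units.

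The number of annotated isoforms also differed among members. Transcript IDs numbered 12 in the unit of Antp, 10 in that of Abd-B and 6 in that of Ubx. Units of pb, Scr and abd-A had 4 each, that of lab had 2, and those of zen, Dfd and ftz had 1. The median was 4 over the Hox units and 1 over all units, and 3 of 10 Hox units, beside 54.6% of all units, listed a single ID. More IDs than the Antp unit had were listed by 0.825% of all units, and more than the Abd-B unit by 1.4%. Dfd was the only homeotic gene whose unit listed 1 ID, over a length above 10000 bp, and lab came next with 2 IDs over 17164 bp. The median of IDs per kb was 0.133 over the Hox units and 0.832 over all units. This measure falls with length at a given number of IDs, and the Hox units were long. It was 0.218 in the NK cluster and 0.130 in the Iroquois complex, homeobox clusters described below. The file does not say which ID belongs to which gene of a merged unit, so the 4 IDs of the Scr unit cover 3 genes. The RefSeq gene table of the same assembly lists 5 transcripts for Scr alone and 12 for Antp alone. For the 8 single-gene members the number of RefSeq transcripts equalled the number of IDs, and for all 10 the RefSeq span equalled that of the unit.

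No Hox unit started inside another unit, and every one had an open stretch in front of it. An open stretch of any length was also present in front of 83.5% of all units. The number of bases upstream of the start site that no unit of either strand covered had a median of 4049 bp over the Hox units. Over all units the median was 363 bp, and all 10 Hox units exceeded that value. The median was longer still in other homeobox clusters described below, 4563 bp in the NK cluster and 13612 bp in the Iroquois complex. The values along the arm were 5854 bp for lab, 1071 bp for pb, 1647 bp for zen, 12107 bp for Dfd, 8857 bp for Scr and 5131 bp for ftz. For Antp the value was 1263 bp, and in the bithorax complex the values were 7698 bp for Ubx, 1066 bp for abd-A and 2967 bp for Abd-B. The open stretch before Dfd was the longest, and 5.03% of all units had a longer one. It separates Dfd from the host unit of mir-993 and is the longest stretch without a unit in the Antennapedia complex.

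**Figure D3:**
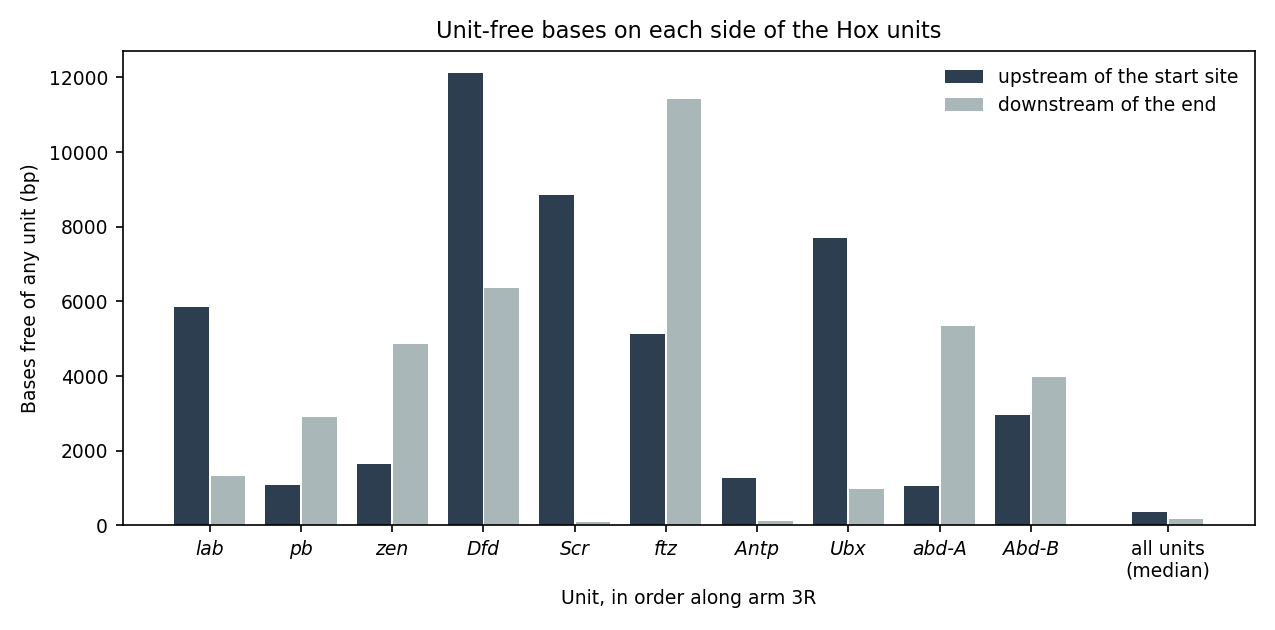
Bases in bp that no unit of either strand covers, upstream of the start site (dark) and downstream of the end (light), for each Hox unit in order along 3R and, at the right, the medians of all units (363 bp and 170 bp). Upstream bars exceed the median of all units at every Hox unit, and the downstream bars of Scr and Antp are the lowest, at 84 bp and 124 bp.

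Downstream of the end, the open stretch had a median of 3438 bp over the Hox units and of 170 bp over all units. It was longest for ftz, at 11433 bp, followed by 6367 bp for Dfd, 5336 bp for abd-A, 4856 bp for zen, 3980 bp for Abd-B and 2896 bp for pb. It was 1326 bp for lab and 960 bp for Ubx. The exceptions were Scr and Antp, whose ends lay 84 bp from a tRNA gene and 124 bp from the non-coding unit CR44932, below the median of all units.

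A unit on the other strand with a start facing away from that of a Hox gene, at most 1000 bp off, was found for 0 of 10 Hox units. Over all units the share with such a divergent neighbour was 33.1%. The closest divergent start was that of CR45899, 1264 bp from the start of Antp, and next came that of VhaM9.7-d, a proton pump subunit gene, 2968 bp from the start of Abd-B. For Ubx the nearest lay 49071 bp away, and for pb 20530 bp.

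Units on the other strand overlapped 2 of 10 Hox units, Scr and Abd-B, beside 39.1% of all units. In both cases the overlapping units were non-coding genes that lay wholly inside the Hox unit. In Scr these were CR45901, CR45904 and CR45905, of 885, 490 and 943 bp, which left 8.63% of the unit's bases covered on both strands. In Abd-B it was CR46267, of 1864 bp, or 4.14% of the unit. Reads counted without regard to strand could not be assigned to one side over these bases. Gaps to the nearest unit were 0 for Scr and Abd-B, 124 bp for Antp and from 960 to 6367 bp for the other 7. The median over the 10 Hox units was 1068.5 bp, beside 70 bp over all units. The contrast rests on counting units of either strand, since to the nearest unit of the same strand the medians were 1198.5 bp over the Hox units and 1057 bp over all units.

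The stretches between neighbouring members held very different contents. From lab to pb lay 29209 bp with 9 units, of which 8 were short genes of the cuticle protein group Edg84A and Ccp84Aa to Ccp84Ag, of 638 to 1312 bp, on both strands. The other was the non-coding unit pncr002:3R, of 605 bp. These cuticle genes lie inside the complex but are no homeobox genes. From pb to zen lay 10800 bp with zen2, a homeobox gene much like zen, and CG34297. The zen2 unit, 1002 bp long, was the nearest unit to pb, at 1071 bp.

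From zen to Dfd lay 37641 bp with 6 units. Here was bcd, the gene of the maternal protein that patterns the anterior embryo, with a unit of 3625 bp and 5 transcript IDs, 1647 bp from zen. Next came Ama, which encodes a secreted immunoglobulin-domain adhesion protein, with a unit of 2669 bp. Its start lay inside the non-coding unit CR45593 of the other strand, with an overlap of 886 bp. The host unit of mir-993, CR42721, was 12679 bp long, on the same strand as Dfd, and the RefSeq table places mir-993 at 6776333 to 6776451, 9283 bp from the start site of the host unit. A non-coding unit, CR43435, lay wholly inside it on the other strand.

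From Dfd to Scr, whose ends face each other, lay 20691 bp with no protein-coding unit. The host unit of mir-10, CR42651, ran from 6808796 to 6816379 on the minus strand, that is, toward the end of Dfd. The miRNA mir-10, of a family kept at this place in the Hox clusters of insects and vertebrates, lay at 6809506 to 6809582, which is 6797 bp from the start site of its host and 710 bp from its end. Closer to Scr was a group of 7 short units within 4 kb, none of them a gene of messenger RNA. It consisted of 4 lysine tRNA genes of 73 bp each (tRNA:Lys-TTT-2-1 to tRNA:Lys-TTT-2-4), a unit named tRNA:Lys-CTT-2-1Psi and the 2 genes of 7SL RNA, the RNA of the signal recognition particle, of 299 bp each. Genes of tRNA and 7SL RNA are transcribed by RNA polymerase III. The RefSeq table holds 6 tRNA:Lys-TTT genes in all, so 4 of 6 lie between Dfd and Scr, and it holds 2 genes of the signal recognition particle RNA, both of them here.

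From Scr to ftz, whose starts face each other, lay 14342 bp that held 1 short unit, CR45900 of 354 bp, so that 2.47% of the bases were covered, the least of the 8 stretches. From ftz to Antp lay 30008 bp with 3 non-coding units on the minus strand. The longest of these, CR44931, was 7601 bp long and ran from 6877678 to 6885278. The RefSeq table gives lincX among its other names.

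**Figure D4:**
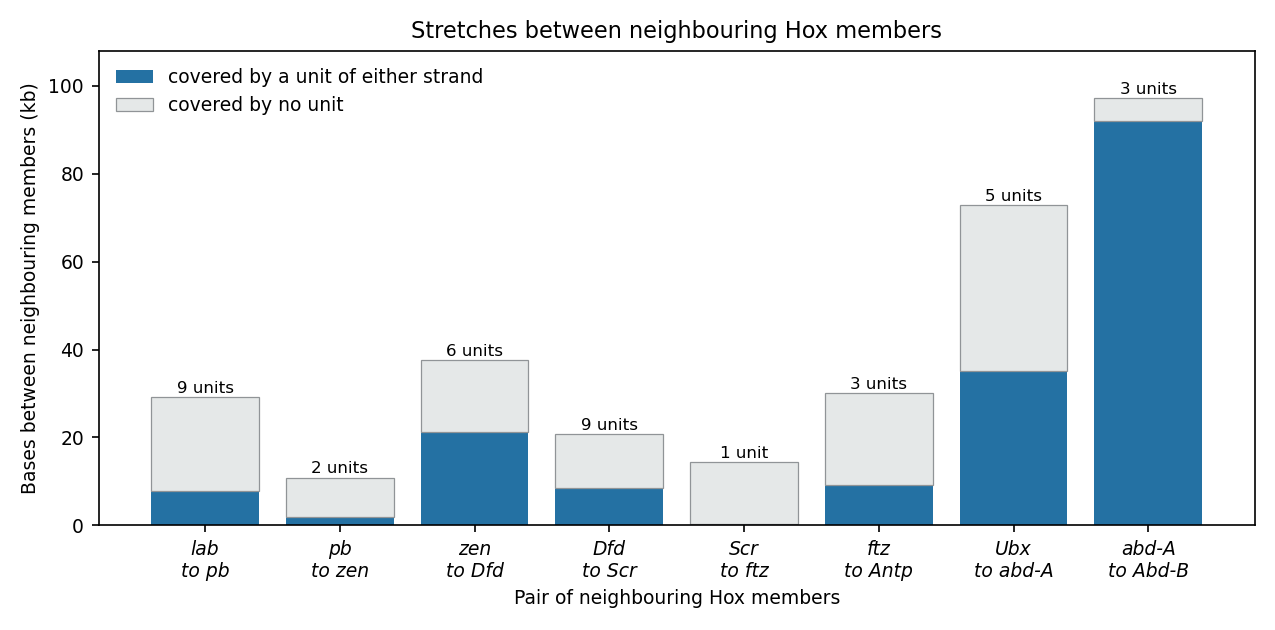
Length in kb of the 8 stretches between neighbouring Hox members, split into bases covered by a unit of either strand (blue) and by none (grey), with the number of units inside. The 2 stretches of the bithorax complex, 72787 bp and 97162 bp, are the longest, and that from abd-A to Abd-B is the most covered, at 94.8%.

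In the bithorax complex the stretches were longer and held few units. From Ubx to abd-A lay 72787 bp with 5 units. The bxd unit, 31065 bp long on the same strand as Ubx and 7698 bp upstream of it, holds a non-coding RNA gene named after the bithoraxoid regulatory region, and also the small protein-coding gene CG31275. The other 4 were on the plus strand. They were CR44945, the sugar transporter gene Glut3 and the pair CR45750 and lncRNA:TS16, which lay 95 bp apart. The longest stretch of the complex without a unit, 10578 bp, separated Glut3 from CR45750.

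From abd-A to Abd-B lay 97162 bp with 3 units, and 94.8% of its bases were covered, the most of the 8 stretches. All of the covered bases lay in a single unit on the minus strand, that of iab-8 and mir-iab-8. The iab-8 transcript is a long non-coding RNA of the posterior abdomen. Its unit was 92116 bp long, from 16831116 to 16923231, so it exceeded every Hox unit but that of Antp. It listed 13 transcript IDs, more than any Hox unit, but these cover 2 genes. The RefSeq table lists 12 transcripts for iab-8 alone, the same number as for Antp. It began 3980 bp past the end of Abd-B and ended 1066 bp before the start of abd-A, and all 3 units run the same way. No unit of either strand lay between the end of iab-8 and the start site of abd-A.

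**Figure D5:**
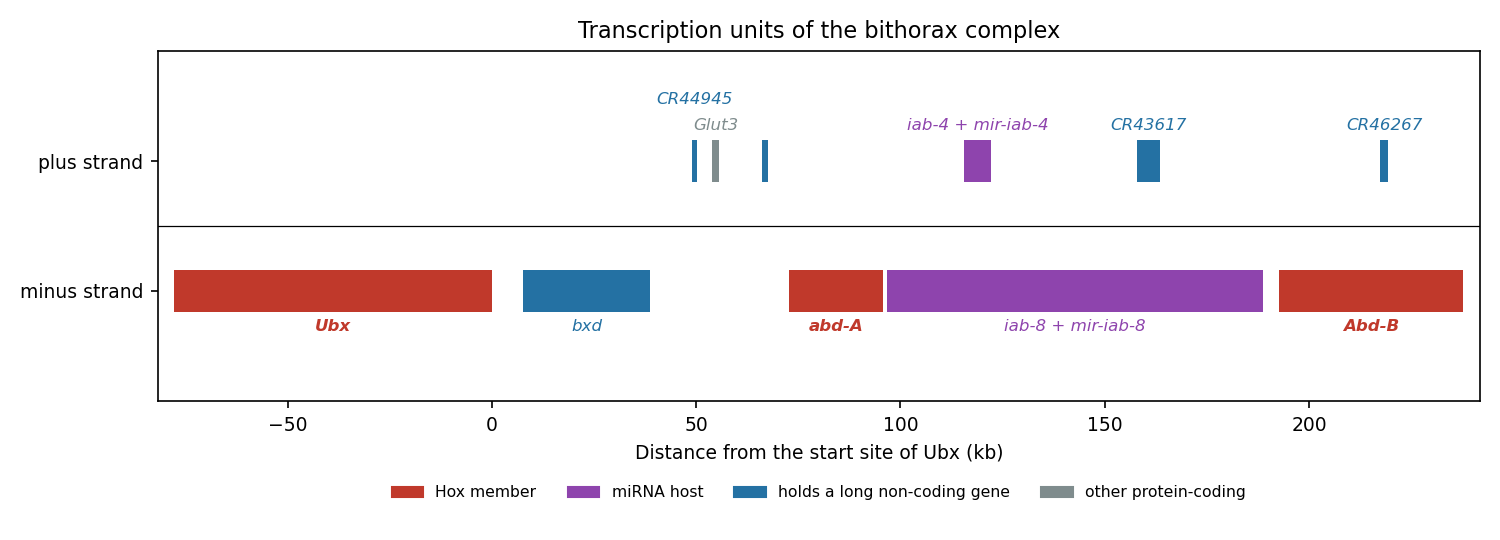
Units of the bithorax complex by strand, with distance in kb from the start site of Ubx on the horizontal axis and colours as classes of units. Ubx, abd-A, Abd-B, bxd and iab-8 are on the minus strand, and iab-4, CR43617 and CR46267 lie on the plus strand wholly inside longer units of the minus strand.

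The iab-4 unit, 6494 bp long from 16850004 to 16856497, lay on the plus strand wholly inside that of iab-8. The RefSeq table gives mir-iab-4 and mir-iab-8 the same span, 16856275 to 16856342, or 68 bp. They are thus annotated on opposite strands of the same bases. The miRNAs made from this locus are known to repress Ubx and, for that of iab-8, also abd-A. From the start sites of their hosts, mir-iab-4 lay 6271 bp in, at 96.6% of the iab-4 unit, and mir-iab-8 lay 66889 bp in, at 72.6% of the iab-8 unit. Polymerase on the plus and on the minus strand can be told apart here only in strand-resolved coverage. A further non-coding unit, CR43617 of 5452 bp, lay inside iab-8 as well, and 13.0% of the bases of iab-8 were covered on both strands.

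Counted over both complexes, 52 units lay between their outermost members, and 24 of these held a long non-coding or miRNA gene. On 3R, 529 of 3810 units held a long non-coding gene and 51 held a miRNA gene. Units with long non-coding genes alone were 30.0% of the 40 units of the Antennapedia complex and 41.7% of the 12 units of the bithorax complex, beside 456 of the 3810 units of 3R. The 4 miRNA genes each shared a unit with a long non-coding gene. Units on opposite strands overlapped in 9 places, in 8 of which the shorter unit lay wholly inside the longer. Bases covered on both strands were 1.32% of the Antennapedia complex and 4.38% of the bithorax complex, beside 3.08% of 3R. Density in the Antennapedia complex was 11.8 units per 100 kb, close to the 12.1 of 3R as a whole, and that in the bithorax complex was 3.80. A unit of either strand covered 72.3% of the bases of the Antennapedia complex, 86.5% of those of the bithorax complex and 74.0% of 3R. The coverage was one-sided. In the bithorax complex it was 85.2% on the minus strand and 5.67% on the plus strand, and in the Antennapedia complex 63.0% and 10.6%. On 3R the same shares were 38.2% and 38.9%. The Hox units themselves made up 57.8% of the bases of the Antennapedia complex and 46.2% of those of the bithorax complex. The one-sided coverage thus partly restates their strands and lengths, and windows of like size were not compared.

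At the outer edges of the complexes stood genes that are not homeobox genes. The agt unit, of a DNA repair alkyltransferase gene, lay 1326 bp beyond the end of lab, and the non-coding unit CR45899 lay 1263 bp beyond the start of Antp. The modSP unit, of an immune serine protease gene, lay 960 bp beyond the end of Ubx, and VhaM9.7-d lay 2967 bp beyond the start of Abd-B.

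Other homeobox clusters gave mixed values beside these. The 6 units of the NK cluster (tin, bap, lbl, lbe, C15 and slou) are of homeobox genes on 3R, several of which act in mesoderm and muscle. They had a median length of 6741.5 bp and a median of 1 transcript ID. The 3 units of the Iroquois complex (ara, caup and mirr), on 3L, had a median length of 15347 bp and 2 IDs. A length of at least 10000 bp was reached by 2 of 6 NK units and 3 of 3 Iroquois units, beside 12.4% of all units. Units on the other strand overlapped 0 of 6 and 0 of 3, beside 39.1% of all units. A divergent start at most 1000 bp away was found for 1 of 6 and 0 of 3, beside 33.1%. Stretches between neighbouring members ran from 10800 to 37641 bp in the Antennapedia complex and from 72787 to 97162 bp in the bithorax complex, beside 6909 to 53448 bp in the NK cluster and 13612 to 71840 bp in the Iroquois complex. The strand changed along the NK cluster too, with 3 units on either strand, and was the same for all 3 Iroquois genes. Median gaps to the nearest unit were 3225 bp in the NK cluster and 8129 bp in the Iroquois complex, beside 1068.5 bp for the Hox units. Free bases downstream had medians of 7120 bp and 13612 bp, beside 3438 bp for the Hox units. Wide gaps and open flanks were therefore not particular to the Hox units. These differences were not tested.

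Of 18 genes that work with, above or below the Hox genes, 5 (27.8%) had a unit of at least 10000 bp, beside 12.4% of all units. Units on the other strand overlapped 4 (22.2%), beside 39.1% of all units. A divergent neighbour within 1000 bp was found for 2 of the 18, beside 33.1% of all units. The median length of these 18 units was 6340 bp, and their median gap to the nearest unit was 4753 bp. The Hox cofactor genes differed widely. The unit of hth, whose homeodomain protein brings Exd into the nucleus, was 132008 bp long and held mir-4944, and that of exd, whose protein binds DNA together with Hox proteins, was 4042 bp long. The 6 early regulators of the clusters, the gap genes hb, Kr, kni, gt and tll and the pair-rule gene eve, all had units of 1477 to 6843 bp, with 1 or 2 transcript IDs. Among 5 genes known as Hox targets, the unit of Dll, the limb gene that Ubx and Abd-A repress in the abdomen, was 20846 bp long. That of dpp, a target of Ubx in the midgut, was 31452 bp long, and that of rpr, a cell death gene activated by Dfd, was 901 bp long. Among 5 other regional regulators, tsh, which acts with Hox proteins in the trunk, had a unit of 8419 bp, and that of cnc, a gene of the mandibular segment, was 41132 bp long and held 17 transcript IDs over 2 genes.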

How the data were processed

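The only file analysed is the annotation of transcription units deposited for the whole series. The tool named in the file header is rtracklayer 1.48.0. Each line states that it comes from merged database versions, but no source read here says how genes were joined into units. The submitters' processing notes list STAR 2.7.4a, cutadapt 2.8 and SAMtools 1.20 for the reads, with dm6 as the build; read data played no part in the values used here. Positions are 1-based bp, and in every line the deposited length equalled end minus start plus 1.

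Members, gene lists and definitions were chosen with earlier results of these data known. The named genes are all members and, of the non-coding and miRNA units between them, their neighbours and the listed genes, most. Counted but not described above are the non-coding units CR44930, CR45915 and CR45559 and the listed genes tio, disco, disco-r, wg and ems. Gene classes and spans come from the RefSeq gene table of Release 6, matched by symbol, locus tag or a unique synonym on the same chromosome; 51 of the 52 units of the complexes matched in full. A gap counts bases to the nearest unit of either strand, an overlap is at least 1 bp, and divergent starts face away at most 1000 bp apart. Values were set beside all units, with no test. Distances were checked against a plain loop on simulated intervals. The work was done in Python 3.11.15 with pandas 2.3.3, NumPy 2.4.6, Matplotlib 3.10.9 and, for the binomial interval, SciPy 1.17.1. Sequences were not used here, so the planned comparisons of promoter motifs and homeodomains were not run.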

Additional observations from a re-analysis of the deposited data

How the results depend on the processing

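No paired analysis was possible because the annotation carries nothing measured per library, and no replicate could be left out. The median Hox length of 24849 bp was the same by RefSeq gene spans and among units of at least 1000 bp. The share of longer units was 5.10% over all units. Its 95% exact binomial interval, 4.76 to 5.45%, treats the units as a sample, although all were counted. The interval leaves out the spread among the 10 Hox units. The share was 5.30% on 3R, 3.20% among units that hold 1 gene and 6.20% among units with a protein-coding gene. By RefSeq spans it was 4.69%, and among units of at least 1000 bp 7.12%. The median Hox gap was 1198.5 bp on the same strand, beside 1057 bp over all units, and 8654.5 bp to the nearest protein-coding unit, beside 110 bp. No Hox unit lay near the latter Hox median. The gaps to a protein-coding unit were 960 to 2967 bp for lab, pb, zen, Ubx and Abd-B. They were 14342 to 30008 bp for Dfd, Scr, ftz, Antp and abd-A. The 2 overlaps held at a minimum of 100 bp, where the share of all units was 28.5% in place of 39.1%. Hox units with a divergent neighbour numbered 0 at 500 bp and 1 (Antp) at 2000 bp, beside 24.4% and 41.1% of all units. The median of transcript IDs was 3 over the 8 single-gene Hox units, and 0.133 per kb over all 10. The construction of each alternative, in what it counts or leaves out, sets these values.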

Other observations

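In the RefSeq table, 3 genes within the complexes were named by no unit of the annotation, out of 45 genes of the Antennapedia complex and 17 of the bithorax complex. CG46458, a protein-coding gene of 62118 bp, shares the end of Antp at 6896253 and lies wholly inside its unit. The antisense RNA gene asRNA:PS4, of 9833 bp from 16720127 to 16729959, lies inside the span of Ubx, where the annotation has no unit on the other strand. MSAmiP, a protein-coding gene of 65179 bp from 16831115 to 16896293, overlaps the iab-8 unit, which is listed with non-coding and miRNA genes alone. The table gives the class of asRNA:PS4 but not its strand, and Ubx was not counted among the overlapped Hox genes.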
